A study of Mus musculus with 109 samples.

Results

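The subject here is the difference between untreated microglia of wild-type C57BL/6 mice and untreated microglia of the floxed mice that serve as controls elsewhere in the study. The rule took the libraries titled as untreated (NT) C57BL/6 and NT IL10Rafl in a single table of normalised values, which gave 4 and 6 libraries, or 10 of the 109 samples of the series. The C57BL/6 group is labelled WT C57BL/6. The floxed group is labelled IL10Rafl/fl, mice whose gene for the ligand-binding chain of the interleukin 10 receptor is flanked by loxP sites, with no Cre named in the label. Both groups are labelled as brain microglia at steady state. The labels used here state no age, sex, breeding history or degree of backcrossing. All 4 C57BL/6 libraries came from an experiment that the labels call LPS rechallenge, after lipopolysaccharide, a bacterial cell wall component used in other arms of the study. The floxed libraries came from experiments labelled 2nd (3 libraries) and 3rd (3 libraries). No group stands in both the C57BL/6 and the floxed experiments, so genotype, strain background, experiment and everything that went with the day of preparation cannot be told apart in this comparison.

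Further untreated libraries served for orientation only. In the same table stand 9 libraries of Il10ra mutants (CX3CR1-CreER:IL10Rafl/fl, in which a Cre fused to the oestrogen receptor is driven from the microglial Cx3cr1 locus), 3 each from the 2nd, the 3rd and a further experiment labelled LPSchallenged, whose 3 libraries are themselves labelled untreated. A second table, normalised on its own, holds 6 controls floxed for both Il10ra and Tnf (IL10Rafl/fl:TNFfl/fl), 3 each from 2 experiments. Levels from that table are not on exactly the same scale. The labels do not say that each library is a separate mouse, so the p-values measure the spread between libraries, which may in part be technical.

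Microglia are the resident macrophages of the brain and keep a characteristic set of genes on at rest, among them purinergic receptors, complement components and the fractalkine receptor. Isolating them requires the tissue to be homogenised, and macrophages are known to switch on immediate early genes, heat shock genes and chemokines within minutes of mechanical or enzymatic handling. Sorted microglia can also carry RNA of blood cells, meninges or choroid plexus. Inbred lines and congenic stretches left over from gene targeting bring a further kind of difference, in which single genes or small chromosomal blocks are set at another level in every mouse. Lists of genes that can respond to handling are described first, then interferon-stimulated and MHC class I genes. Genes with the form of a strain or locus difference follow, then genes of other cells. The order serves description only, and the part of handling in these values was not tested.

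RNA was read by MARS-seq, which sequences tags from the 3′ end of transcripts. Reads per library, recovered from the steps of the normalised values, ran from 565087 to 881820 in C57BL/6 and from 955565 to 1496077 in the floxed controls. Every C57BL/6 library was therefore shallower than every floxed library, and depth cannot be told apart from the group. The summed level of 9 defining microglia markers was alike, from 32839 to 34159 normalised reads in C57BL/6 and from 33789 to 35912 in the floxed controls. The sum of a longer list of 28 homeostatic microglia genes was higher in C57BL/6 by its median (174886 against 141499). Its ranges overlapped, from 167624 to 180777 and from 137133 to 178350. Il10ra stood at 550.2, 568, 591 and 700.2 normalised reads in the 4 C57BL/6 libraries and at 426 to 686, with a median of 471, in the 6 floxed libraries, against 17.7 to 115, with a median of 47.3, in the 9 mutants. The C57BL/6 and floxed values overlapped (log2 0.27 ± 0.13, adjusted p = 0.219), and the difference passed without floxed replicate 1 (log2 0.36, adjusted p = 0.0105). A single floxed library, replicate 1 of the 2nd experiment, stood apart from the other five on the second principal component, which held 18.3% of the variance, with a coordinate of -56.8 against 4.03 to 19.6.

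Of 9940 genes tested, 950 (9.56%) passed an adjusted p under 0.05 in limma. C57BL/6 was higher for 603 of them (6.07% of the genes tested) and lower for 347 (3.49%). The median log2 difference over all genes tested was -0.02. For 725 of the 950, the values of the 4 C57BL/6 libraries did not overlap those of the 6 floxed libraries, which was so for 9.81% of all genes tested. Large differences were mostly rises: 244 called genes had an absolute log2 difference of 1 or more while averaging 20 or more normalised reads in either group, 199 of them higher and 45 lower in C57BL/6. The count of 950 became 1496 without floxed replicate 1, 405 against the 2nd floxed experiment alone and 1698 against the 3rd alone. Between the 3rd and the 2nd experiment of the floxed controls themselves, limma called 1 of the same 9940 genes (0.0101%). It was Tpt1, the gene of the translationally controlled tumour protein, higher in the 3rd by log2 1.34 ± 0.12 (adjusted p = 0.00610). At an unadjusted p under 0.05 that comparison gave 1257 genes, edgeR called 2 and DESeq2 32, and without floxed replicate 1 limma called 169.

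Immediate early genes had the highest share of calls among the 26 lists examined, 92.0% of the genes tested. These are transcription factors and feedback regulators whose transcription starts without new protein synthesis after almost any stimulus. Of 31 listed genes 25 passed the filter on low values, and 23 of the 25 were higher in C57BL/6, where 6.07% of all genes were. The median log2 difference of the list was 2.03. Fosl2 and Myc were the tested members that did not pass. In 22 of the 25 the groups did not overlap.

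Fosb, a subunit of the AP-1 transcription factor, stood at 459, 352, 290.2 and 476 normalised reads in the C57BL/6 libraries and at 9.63 to 26.6, with a median of 23.2, in the floxed libraries (log2 4.23 ± 0.23, adjusted p = 4.40e-09). Its partner Fos stood at 2817, 2209, 1939.9 and 2989.7 against 372 to 559, with a median of 424 (log2 2.46 ± 0.14, adjusted p = 5.35e-09). For both genes the lowest C57BL/6 library was several times the highest floxed library. Junb, a further AP-1 subunit, was higher by log2 2.03, with 2431, 2278, 2087 and 2351 against 440.3 to 761, with a median of 545. The Krüppel-like factor Klf2 stood at 523, 429, 506 and 688 against 33.9 to 59.6, with a median of 40.01 (log2 3.58 ± 0.17, adjusted p = 3.98e-10), and its relative Klf4 at 479.5, 309, 309 and 400.5 against 13.3 to 86.2, with a median of 49.9 (log2 3.03 ± 0.34, adjusted p = 1.25e-05). The stress-responsive factor Atf3 showed the same separation, 424, 299.97, 257 and 336 against 37.5 to 59.4, with a median of 46.9 (log2 2.75 ± 0.16, adjusted p = 4.45e-09). Ier2, a short-lived nuclear regulator, stood at 941, 855, 838 and 1079.7 against 120.03 to 202, with a median of 189 (log2 2.37 ± 0.14, adjusted p = 5.35e-09). Within C57BL/6 the median ratio of the highest to the lowest library over the tested members was 1.40, small beside the difference between groups.

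Feedback genes moved with them. Zfp36, whose product binds and destabilises cytokine mRNAs, was higher by log2 1.68. Dusp1, a phosphatase of MAP kinases, stood at 871, 658, 739 and 1069.9 normalised reads against 124 to 281, with a median of 162 (log2 2.21 ± 0.19, adjusted p = 5.63e-07). Btg2, an antiproliferative cofactor, stood at 1009.7, 844, 812 and 942 against 204 to 315, with a median of 271 (log2 1.76 ± 0.13, adjusted p = 5.84e-08). Ppp1r15a, which restores translation after stress by directing dephosphorylation of eIF2 alpha, stood at 435, 407, 352 and 410.3 against 40.7 to 107, with a median of 84.6 (log2 2.40 ± 0.20, adjusted p = 4.19e-07). The orphan nuclear receptor Nr4a1 was higher by log2 2.36.

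The promoters of Dusp1, Btg2 and Ppp1r15a are shown because they carry a full cyclic AMP response element, the palindrome TGACGTCA bound by CREB and ATF factors. RefSeq windows (GRCm38.p6) were found for 21 of the 23 genes called higher, the exceptions being Egr1 and Ier2. The element was searched on both strands in the 250 bases before the start. It lay in a window of 3 of the 21 genes (14.3%), against 1.55% of 32851 single windows of 27025 genes. A gene counted if any of its windows held the element, so the 2 shares are not strictly alike. In the windows shown the element overlapped none of the other motifs searched. A CArG box, the site of serum response factor, lay in 2 of the 21 (Egr2 and Zfp36), against 1.47% of all windows. Such a match describes the letters in the window and does not show that a factor binds there. The 3 windows, all on the minus strand, are given 5′ to 3′ with the element in capitals; they lie at chr17:26508473-26508722 (Dusp1), chr1:134079156-134079405 (Btg2) and chr7:45526269-45526518 (Ppp1r15a), and the element starts 143, 166 and 12 bases before the gene's start.
Dusp1: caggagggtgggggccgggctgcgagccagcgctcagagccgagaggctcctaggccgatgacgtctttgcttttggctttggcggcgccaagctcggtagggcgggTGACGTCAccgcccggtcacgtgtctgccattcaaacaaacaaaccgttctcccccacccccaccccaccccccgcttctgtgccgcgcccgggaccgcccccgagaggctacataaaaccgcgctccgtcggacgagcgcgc
Btg2: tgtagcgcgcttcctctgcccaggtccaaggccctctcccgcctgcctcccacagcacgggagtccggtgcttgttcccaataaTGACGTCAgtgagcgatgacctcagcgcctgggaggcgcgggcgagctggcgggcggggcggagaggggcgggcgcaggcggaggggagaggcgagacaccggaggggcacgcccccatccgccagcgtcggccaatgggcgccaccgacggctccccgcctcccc
Ppp1r15a: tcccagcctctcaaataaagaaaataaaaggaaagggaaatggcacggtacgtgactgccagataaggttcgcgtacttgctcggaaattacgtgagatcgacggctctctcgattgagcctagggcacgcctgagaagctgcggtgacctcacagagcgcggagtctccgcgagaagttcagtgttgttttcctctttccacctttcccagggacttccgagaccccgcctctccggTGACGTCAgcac

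Chemokines and inhibitors of NF-kB were higher as well. Of 20 listed genes 18 were tested and 12 were higher, where 6.07% of all genes were. The median log2 difference was 1.57. The chemokine genes Ccl3 and Ccl4, whose annotations overlap, stood at 1194, 1365, 1199 and 1199 against 149 to 289.99, with a median of 214 (log2 2.48 ± 0.15, adjusted p = 7.12e-09) and at 813, 836, 848 and 896 against 94.3 to 177, with a median of 145 (log2 2.57 ± 0.15, adjusted p = 4.45e-09). Nfkbia, the inhibitor that holds NF-kB in the cytoplasm, stood at 2143, 2392, 2344 and 2043 against 312 to 676, with a median of 597 (log2 2.02 ± 0.17, adjusted p = 4.25e-07). Rgs1, a regulator of G protein signalling, was higher by log2 2.59, with 529, 422, 496 and 503 against 45.2 to 110.5, with a median of 84.2. Tnf, the cytokine deleted elsewhere in the study, stood at 80.1, 63.7, 57.004 and 95.2 against 20.1 to 34.8, with a median of 25.4 (log2 1.44 ± 0.20, adjusted p = 1.21e-04). Il1a, Il1b, Cd83, Icam1, Rgs2 and Tnfaip3 did not pass, so the block did not extend to the whole inflammatory list.

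Heat shock genes were mixed. Of 17 tested chaperone genes 9 were higher, where 6.07% of all genes were, and the others did not pass. The median log2 difference was 0.57. Hspa8, the constitutive chaperone of its family, stood out by its narrow range in C57BL/6, 1523, 1490.5, 1494 and 1339 normalised reads, against 92.6 to 248, with a median of 175, in the floxed controls (log2 3.14 ± 0.21, adjusted p = 1.97e-08). Hspa8 lies on chromosome 9, 4.5 Mb from Il10ra. Of its 10 nearest tested genes 1 (Gramd1b) was called, where 9.56% of all genes were. The inducible pair Hspa1a and Hspa1b, near-identical genes between which reads can be split, varied widely in both groups. Hspa1a stood at 547, 859, 1441 and 314 against 42.2 to 427, with a median of 94.9, and the groups overlapped although the gene passed (log2 2.55 ± 0.49, adjusted p = 0.00251). The small heat shock protein gene Hspb1 stood at 73.05, 148, 91.6 and 104 against 15.8 to 46.1, with a median of 16.7 (log2 2.27 ± 0.27, adjusted p = 2.22e-05), and the abundant chaperone Hsp90ab1 was higher by log2 0.57.

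Genes that follow stress hormone were in part higher. Of 11 tested glucocorticoid response genes 6 (54.5%) were higher, against 52.9% of the heat shock genes and 6.07% of all genes. The median was 0.67. Tsc22d3, which encodes the glucocorticoid-induced leucine zipper, stood at 176, 172, 199 and 199 against 53.5 to 78.99, with a median of 67.6 (log2 1.47 ± 0.13, adjusted p = 6.34e-07). The kinase gene Sgk1 stood at 1383, 1056, 1382 and 1279.9 against 512 to 859.8, with a median of 572 (log2 1.08 ± 0.14, adjusted p = 5.35e-05). Of 14 tested circadian genes 28.6% were called, 1 (Per1) higher and 3 lower, where 9.56% of all genes were. The largest of these falls was that of Hlf, a transcription factor of the clock output, which stood at 1.18, 1.87, 3.45 and 1.40 against 10.1 to 24.3, with a median of 17.3 (log2 -2.59 ± 0.33, adjusted p = 4.54e-05). Its C57BL/6 values lie at the floor, where 1 read is worth 1.18 to 1.87, so the size of the fall is uncertain. Hlf passed the filter on low values through the floxed libraries only. Dbp, a factor of the same family with strong daily rhythm, was lower, at only log2 -0.54 (adjusted p = 0.0283). That call was lost without any of C57BL/6 replicates 1, 3 and 4 or floxed replicates 5 and 6 (adjusted p from 0.0588 to 0.0758). Time of day is not stated in the labels used here, and its part in these values was not tested.

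**Figure D1:**
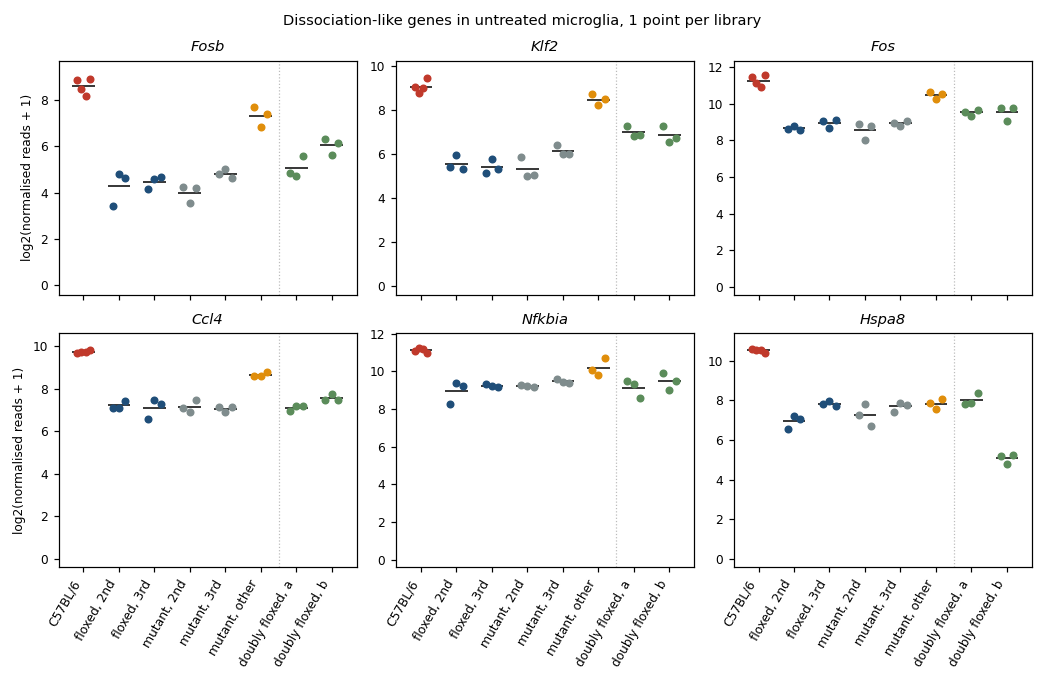
Dissociation-like genes in 25 untreated libraries, by genotype and experiment, as log2(normalised reads + 1) with 1 point per library and a bar at the mean of the points; "mutant, other" is the further experiment of Il10ra mutants, and the groups right of the dotted line come from the table normalised on its own. C57BL/6 libraries lie above all others for Fosb, Fos, Klf2, Ccl4, Nfkbia and Hspa8, and the 3 libraries of the further mutant experiment come next for Fosb, Klf2, Fos and Ccl4.

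The other untreated libraries showed that the level of these genes differed between experiments also within a genotype. For 21 of the 25 tested immediate early genes, the 3 mutant libraries of the further experiment all lay above the 6 mutant libraries of the 2nd and 3rd experiments, which carry the same genotype label. Over all genes tested this was so for 6.10%. These 3 libraries also lay above all 6 floxed libraries for 21 of the 25, against 5.97% of all genes, and in 14 of those 21 genes they stayed below every C57BL/6 library. For Fosb the mean of the further mutant experiment was 162 normalised reads, against 15.4 and 27.3 in the mutants of the 2nd and 3rd experiments. Klf2 stood at means of 351, 39.5 and 68.7 in the same order, and Fos at 1414, 391.5 and 492. The floxed means of the 2nd and 3rd experiments were 19.9 and 21.5 for Fosb. Within the mutant genotype the level thus differed between experiments, and for these 3 genes the means of the further experiment lay between those of the floxed controls and C57BL/6. The statements that set these libraries against the floxed controls share the floxed libraries with the main comparison, and the further experiment holds mutants alone among the libraries used here. Among the doubly floxed controls, Fosb averaged 33.3 and 65.7 in the 2 experiments and Klf2 126 and 115. The chemokine and NF-kB feedback list gave 9 of 18 genes in which the further mutant experiment lay above the other mutants. Heat shock genes gave 2 of 17. Hspa8 followed another order. Its mean in the further mutant experiment was 229.6, within the floxed range, and 262 and 33.01 in the doubly floxed experiments.

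Interferon-stimulated genes were the next block. They are the targets of type I interferon, and microglia keep some of them on at rest. Of 22 tested genes 15 were higher in C57BL/6, where 6.07% of all genes were. The median log2 difference was 1.54. Ifit1, Xaf1 and the guanylate-binding protein genes Gbp2, Gbp3 and Gbp7 were among those that did not pass. Ifitm3, an antiviral membrane protein, stood at 63.6, 135, 82.9 and 72.8 against 10.3 to 13.6, with a median of 11.98 (log2 2.73 ± 0.21, adjusted p = 1.32e-07). Irf7, the transcription factor that amplifies interferon production, stood at 80.1, 112, 63.9 and 77.02 against 13.9 to 33.3, with a median of 18.3 (log2 2.00 ± 0.23, adjusted p = 1.33e-05). The ubiquitin-like modifier Isg15 stood at 76.6, 76.9, 96.7 and 64.4 against 11.5 to 35.5, with a median of 22.1 (log2 1.83 ± 0.26, adjusted p = 1.96e-04), and Ifit3, an RNA-sensing effector, at 41.2, 50.6, 31.1 and 33.6 against 2.15 to 15.6, with a median of 6.56 (log2 2.35 ± 0.37, adjusted p = 5.12e-04). Bst2, which tethers budding virions, was higher by log2 1.52. The C57BL/6 libraries were all above the floxed libraries for these genes. In the further mutant experiment the means were 39.2 for Irf7 and 44.4 for Isg15. The 3 libraries of that experiment did not all lie above the floxed libraries for either gene. The summed level of the list was 3019, 3041 and 4296 in these 3 libraries, against 2712 to 3053 in the other mutants, so 1 library stood out. That experiment lay above the other mutants for 3 of the 22 genes, against 6.10% of all genes tested.

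Isg15 and Ifit3 are shown with their promoters because their windows carry the core of the interferon-stimulated response element (GAAA, any pair of bases, GAAA), searched on both strands. Windows were found for 9 of the 15 genes called higher, and not for Oas2, Usp18, Ifi27l2a, Rtp4, Zbp1 and Ly6e. The core lay in a window of 5 of these 9 genes (Ifit3, Ifit3b, Isg15, Rsad2 and Bst2), against 2.98% of all windows counted singly. Isg15 held 3 overlapping copies between 78 and 66 bases before the start, and Ifit3 held 2, at 156 and 122 bases. The windows lie at chr4:156200819-156201068 on the minus strand (Isg15) and chr19:34583279-34583528 on the plus strand (Ifit3), and the capitals mark the core.
Isg15: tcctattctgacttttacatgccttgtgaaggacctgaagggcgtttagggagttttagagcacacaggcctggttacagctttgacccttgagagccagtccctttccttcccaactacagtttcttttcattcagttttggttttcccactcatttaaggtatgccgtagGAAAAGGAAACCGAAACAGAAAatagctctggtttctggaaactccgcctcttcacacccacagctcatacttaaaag
Ifit3: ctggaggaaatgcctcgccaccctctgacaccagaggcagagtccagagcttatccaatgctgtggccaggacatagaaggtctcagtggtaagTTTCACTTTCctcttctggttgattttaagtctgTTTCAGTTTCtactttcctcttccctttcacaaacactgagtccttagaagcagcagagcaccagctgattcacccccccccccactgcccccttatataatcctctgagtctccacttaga

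MHC class I genes, many of them interferon targets and also the most polymorphic genes of the mouse, were in part higher. Of 12 tested genes 6 were higher, where 6.07% of all genes were, with a median of 0.64. H2-K1 stood at 1161, 1215, 1054 and 1293 against 375 to 619, with a median of 427 (log2 1.41 ± 0.13, adjusted p = 9.17e-07) and H2-D1 at 1592, 1895, 1565 and 1592 against 541 to 902, with a median of 584 (log2 1.42 ± 0.14, adjusted p = 1.53e-06). These classical genes present peptides to cytotoxic T cells. The non-classical H2-Q7 stood at 32.99, 54.4, 41.5 and 15.4 against 2.14 to 14.1, with a median of 4.68 (log2 2.49 ± 0.41, adjusted p = 6.53e-04), and H2-M3, which presents formylated peptides, was higher by log2 1.34. B2m, Tap2 and Tapbp, which serve all class I molecules, did not pass. Class I genes are close copies of each other, and the labels used here do not say how reads were assigned among them, so single members are uncertain. In the further mutant experiment H2-K1 averaged 845 and H2-D1 1157, against 376 and 554 in the mutants of the 2nd experiment and 576 and 672 in those of the 3rd. All 3 libraries of the further experiment lay above the other mutants for H2-D1, but not for H2-K1, and for 4 of the 12 genes. The summed level of the list was 5146, 4873 and 7267 in the 3 libraries, against 4455 to 5601 in the other mutants, so 1 library stood out.

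A second kind of difference had the form of a step. To describe it, called genes of the large set were kept where the distance on the log2 scale between the nearest C57BL/6 library and the nearest of 21 other untreated libraries exceeded the whole span of those 21; this rule was chosen after the values were seen. It kept 6 genes, 4 higher (Lrba, Ets1, H2-DMa and Syngr2) and 2 lower (Mlph and Cd34). By its construction it leaves out genes that differ between the other experiments. The looser condition that C57BL/6 lie outside the range of the 21 others held for 112 of the 244 large differences, 92 higher and 20 lower.

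Lrba, which encodes a large protein of vesicle traffic that protects the receptor CTLA-4 from degradation, stood at 335, 337, 295 and 335 normalised reads in C57BL/6 and at 11.4 to 24.6, with a median of 14.9, in the floxed controls (log2 4.24 ± 0.19, adjusted p = 3.98e-10). The mutants ranged from 14.3 to 37.2 and the doubly floxed controls from 11.7 to 32.003. The highest of these values lay far below the lowest C57BL/6 value. Lrba lies at chr3:86223456-86782694 (GRCm38.p6). Ets1, a transcription factor best known from lymphocytes, stood at 81.3, 69.4, 67.4 and 63.02 against 1.07 to 5.05, with a median of 2.95 (log2 4.20 ± 0.29, adjusted p = 2.85e-08), with mutants from 0 to 5.60 and doubly floxed controls from 0 to 2.97. It lies at chr9:32636241-32757820, 12.6 Mb from Il10ra and on the chromosome of the targeted gene. H2-DMa, which helps load peptides onto MHC class II, stood at 391, 517, 523 and 468 against 91.3 to 151, with a median of 119.6 (log2 1.95 ± 0.14, adjusted p = 8.63e-08), at chr17:34119693-34139101 within the MHC. Syngr2, a membrane protein of vesicles, stood at 683, 634, 599 and 751 against 209.6 to 295, with a median of 275 (log2 1.34 ± 0.12, adjusted p = 5.63e-07).

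Mlph and Cd34 stepped down. Mlph encodes melanophilin, the linker between melanosomes and myosin whose loss dilutes coat colour, and stood at 36.5, 43.1, 41.5 and 43.4 in C57BL/6 against 145 to 186, with a median of 166, in the floxed controls (log2 -1.99 ± 0.12, adjusted p = 5.68e-09). The mutants ranged from 150.1 to 188, a range that overlaps the floxed one. Cd34, a sialomucin of progenitor and endothelial cells that some myeloid cells also express, stood at 173, 182, 188 and 186 against 423 to 625, with a median of 520.4 (log2 -1.46 ± 0.12, adjusted p = 2.15e-07). The tested gene next to Mlph was among the largest falls too. Col6a3, a collagen VI chain at chr1:90766860-90844001, ends 71.0 kb before Mlph (chr1:90915024-90951142) and stood at 8.25, 7.50, 3.45 and 5.60 against 20.1 to 70.99, with a median of 58.9 (log2 -2.85 ± 0.31, adjusted p = 9.61e-06).

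Among the 10 tested genes nearest to each step gene (7 for Cd34), limma called 2 for Lrba, 5 for H2-DMa (H2-Oa, Brd2, H2-DMb2, Psmb9 and Tap1), 2 for Syngr2 and 1 for Mlph (Col6a3), where 9.56% of all genes were called. For Ets1 and for Cd34 the count was 0 by limma, 0 at an unadjusted p under 0.05, 0 by edgeR and 0 by DESeq2. Among the genes near H2-DMa and Syngr2 are also members of lists described elsewhere, Tap1 and Socs3.

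**Figure D2:**
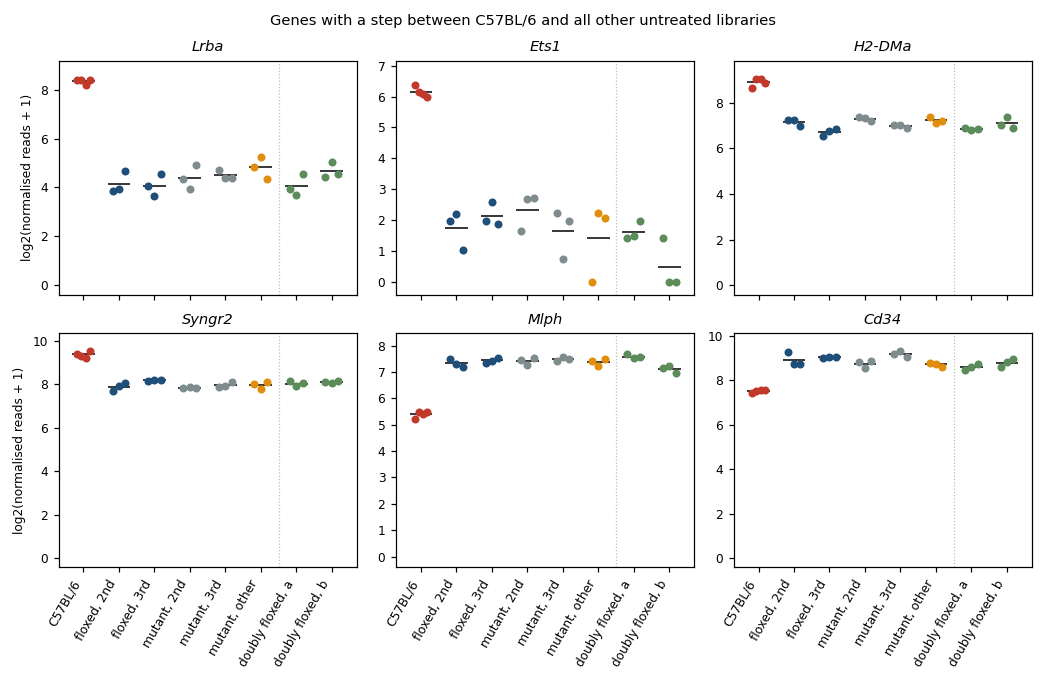
The 6 step genes in untreated libraries by genotype and experiment, as log2(normalised reads + 1) with 1 point per library and a bar at the mean of the points; groups right of the dotted line come from the table normalised on its own. C57BL/6 libraries stand apart from every other library for Lrba, Ets1, H2-DMa, Syngr2, Mlph and Cd34, with a gap wider than the spread of the others.

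The surroundings of the targeted locus were examined because embryonic stem cell DNA of another strain can travel with a targeted allele. Among the 20 tested genes on each side of Il10ra (chr9:44292438-50605320), 5 of 40 were called (12.5%, where 9.56% of all genes were), 3 higher and 2 lower. Bcl9l, a cofactor of Wnt signalling, stood at 218, 189, 229.7 and 193 against 58.5 to 111, with a median of 78.8 (log2 1.35 ± 0.15, adjusted p = 1.36e-05). The adhesion molecule gene Cadm1 was lower, 160.2, 139, 129.6 and 155 against 196 to 269.5, with a median of 244 (log2 -0.69 ± 0.13, adjusted p = 0.00168). The call of Cadm1 was lost against the 2nd floxed experiment alone (adjusted p = 0.0625). Trappc4 and Sidt2 were higher and Ift46 lower, with log2 differences of 0.62, 0.46 and -0.65. The median over the 40 was -0.07. Across chromosomes the share of tested genes called ran from 5.52% on X to 13.2% on chromosome 17, which holds the MHC, with 9.04% on chromosome 9.

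Of 35 listed genes known to vary among inbred strains 19 were tested and 3 (15.8%) were called, where 9.56% of all genes were. These were Ly6a, H2-Q7 and H2-Q6, all higher. Ly6a, the stem cell antigen Sca-1 and an interferon target, stood at 67.2, 80.6, 32.8 and 81.2 against 8.89 to 15.8, with a median of 10.9 (log2 2.34 ± 0.26, adjusted p = 9.11e-06). The median of the list was 0.06. Xist, the RNA that coats the inactive X chromosome of females, stood at 78.9, 76.9, 88.1 and 79.8 in C57BL/6 and at 59.99 to 106, with a median of 86.5, in the floxed controls (log2 -0.03 ± 0.15, adjusted p = 0.925), so every library held it. The difference reversed in sign without floxed replicate 4 and against the 2nd floxed experiment alone, both within the spread.

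RNA of other cell types made up the third kind of difference, and its values scattered widely within groups. Haemoglobin genes, expressed by red cell precursors and carried by erythrocytes, were higher in C57BL/6. Hba-a1 stood at 94.3, 93.7, 200.4 and 57.4 against 0 to 22.2, with a median of 0.359 (log2 5.60 ± 0.69, adjusted p = 3.57e-05), and Hbb-bs at 118, 351, 416 and 112 against 0 to 134, with a median of 1.03 (log2 5.95 ± 0.99, adjusted p = 7.81e-04). In the floxed controls nearly all haemoglobin reads lay in replicate 1, with Hbb-bs at 134 there and at no more than 1.90 in the other five libraries. The summed level of 4 defining erythroid markers with values ran from 202 to 886 in C57BL/6, from 0 to 217 in the floxed controls and from 0 to 188 in the mutants. A doubly floxed library reached 1237 for Hbb-bs, above every C57BL/6 library. Of 7 tested erythroid genes 4 passed limma, where 9.56% of all genes did, 3 passed edgeR and 1 passed DESeq2. The haemoglobin genes reached the filter value of 5 in all 4 C57BL/6 libraries, enough to be tested through that group alone, which favours rises. DESeq2 lost Hbb-bs (adjusted p = 0.293), Hbb-bt (adjusted p = 0.522) and Hba-a2 (adjusted p = 0.0594). The call of Hbb-bt was also lost without C57BL/6 replicate 3 (adjusted p = 0.0501). In bulk samples, fewer cells of a type and less RNA per cell cannot be told apart, here and for the other cell types. Haemoglobin copies are near-identical within each pair, so their split is uncertain.

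Neutrophil granule genes went the other way. Of 13 listed genes with values 8 were tested and 5 were lower in C57BL/6, where 3.49% of all genes were. The median was -2.73 (-2.79 with Chil3, which had no read in C57BL/6, at its bound). The filter asked for a value of 5 in 4 of the 10 libraries. S100a8, S100a9, Ngp and Chil3 stayed below 5 in every C57BL/6 library. They were thus tested only through the floxed libraries, where they are high, which favours falls in this count and median. S100a9, a subunit of calprotectin, stood at 2.36, 0, 3.45 and 0 normalised reads against 3.68 to 219.96, with a median of 70.2 (log2 -4.78 ± 0.75, adjusted p = 4.56e-04). Its partner S100a8 had reads in 1 of the 4 C57BL/6 libraries, against 0.736 to 62.1, with a median of 46.3, in the floxed controls (log2 -4.41 ± 0.78, adjusted p = 0.00134). The granule protein gene Ngp stood at 0, 0, 1.73 and 2.80 against 0.736 to 232, with a median of 30.98 (log2 -3.90 ± 0.88, adjusted p = 0.00834). For Chil3 the floxed mean of 8.20 was 7.08-fold a bound of 3 reads over the C57BL/6 group. Its floxed values ran from 0 to 22.96, with a median of 6.71, so the groups overlapped. The call of Chil3 was lost against the 3rd floxed experiment alone (adjusted p = 0.152). Lcn2, which binds bacterial iron carriers, was lower, at log2 -2.64, a call lost without C57BL/6 replicate 4 (adjusted p = 0.0714). In the floxed controls replicate 4 held almost none of this RNA, with S100a9 at 3.68. The summed level of 6 defining neutrophil markers with values ran from 2.80 to 35.6 in C57BL/6, from 5.15 to 689.5 in the floxed controls and from 0.980 to 509 in the mutants, and Retnlg was at 0 in every C57BL/6 and floxed library. Mutant and doubly floxed libraries thus spanned both ends of the range.

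Genes of monocytes, border macrophages and lymphocytes followed no common direction. The monocyte receptor gene Ccr2 stood at 3.53, 5.62, 1.73 and 2.80 against 1.48 to 15.4, with a median of 11.5 (log2 -1.24 ± 0.47, adjusted p = 0.118), a difference that passed without floxed replicate 1 (log2 -1.64, adjusted p = 0.00224). Ly6c2, another monocyte marker, was at 0 in every C57BL/6 library. It was near the floor in the floxed controls too, where Ccr2 alone averaged 10.5 normalised reads and both genes together 12.1. Lgals3, which activated microglia also express, was the tested monocyte gene that passed (log2 1.63 ± 0.24, adjusted p = 2.73e-04). Mrc1, the mannose receptor of macrophages at the brain's borders, stood at 12.96, 16.9, 19.002 and 11.2 against 2.15 to 16.9, with a median of 4.95 (log2 1.32 ± 0.42, adjusted p = 0.0581). None of the 3 tested border macrophage genes was called by limma, against 2 at an unadjusted p under 0.05, 1 by edgeR and 0 by DESeq2; Mrc1 passed without floxed replicate 4 (log2 1.62, adjusted p = 0.0113). Of 8 tested genes of MHC class II and dendritic cells 3 (H2-DMa, H2-Oa and H2-Ab1) were higher, where 6.07% of all genes were. Cd79b, a B cell receptor component also present in microglia, was higher by log2 0.85. The 2 of 5 defining B cell markers with values, Cd79b and the immunoglobulin heavy chain gene Ighm, summed to 809.9 to 893 in C57BL/6, 535 to 709.5 in the floxed controls and 550.4 to 722 in the mutants, most of it from Ighm, which did not pass (log2 0.34, adjusted p = 0.0532). Of 2 tested genes of the T and NK cell list, Ccl5, a chemokine that myeloid cells make too, was higher by log2 2.58. The other, Klrd1, did not pass (log2 -0.81, adjusted p = 0.424), and none of 7 defining T and NK cell markers had a value. Igha, the heavy chain of IgA, stood at 2.36, 5.62, 60.5 and 199 against 0 to 14.1, with a median of 0.368, with the reads mainly in 2 of the 4 C57BL/6 libraries (log2 3.35 ± 0.98, adjusted p = 0.0391). Its call was lost without any of C57BL/6 replicates 3 and 4 or floxed replicates 2, 3 and 4 (adjusted p from 0.0656 to 0.171).

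Genes of brain cells other than microglia gave few calls. For oligodendrocytes, none of the 5 tested genes passed in limma (0 at an unadjusted p under 0.05, 0 by edgeR and 0 by DESeq2), with adjusted p from 0.225 to 0.957. The 2 tested neuronal genes had adjusted p of 0.0729 and 0.221. Of 2 tested astrocyte genes, the glutamate transporter gene Slc1a3 was lower (log2 -0.57), and Clu did not pass (log2 0.37, adjusted p = 0.842). The call of Slc1a3 was lost against the 2nd floxed experiment alone (adjusted p = 0.141). Only 1 of 5 defining astrocyte markers had values, 0 to 5.60 in C57BL/6 and 1.26 to 7.50 in the floxed controls. The cell source of the Slc1a3 reads was not tested. The endothelial adhesion gene Pecam1 was higher by log2 0.97 (adjusted p = 0.0466) with overlapping groups. The call of Pecam1 was lost without any of 3 C57BL/6 libraries (replicates 1, 2 and 4) or 4 floxed libraries (replicates 2, 4, 5 and 6), with adjusted p from 0.0541 to 0.175. The choroid plexus gene Ttr, a carrier of thyroid hormone secreted into the cerebrospinal fluid, stood at 98.97, 103, 62.2 and 342 against 28.7 to 1173, with a median of 147 (log2 -0.66 ± 0.74, adjusted p = 0.643). Its mean was 672 in the 2nd floxed experiment and 86.8 in the 3rd, and the sign of the C57BL/6 difference turned with the experiment chosen, from log2 -2.05 (adjusted p = 0.0489) to 0.74 (adjusted p = 0.294). Doubly floxed controls ranged from 1083 to 8332. Krt17, a keratin of skin and its appendages, was read in all 4 C57BL/6 libraries, at 157, 78.7, 5.18 and 19.6, and in none of the 15 floxed and mutant libraries of the table. Its C57BL/6 mean of 65.1 was 171-fold a bound of 3 reads over the floxed group (adjusted p = 6.50e-05 in limma). The part of other cells in the values of the remaining genes was not tested.

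**Figure D3:**
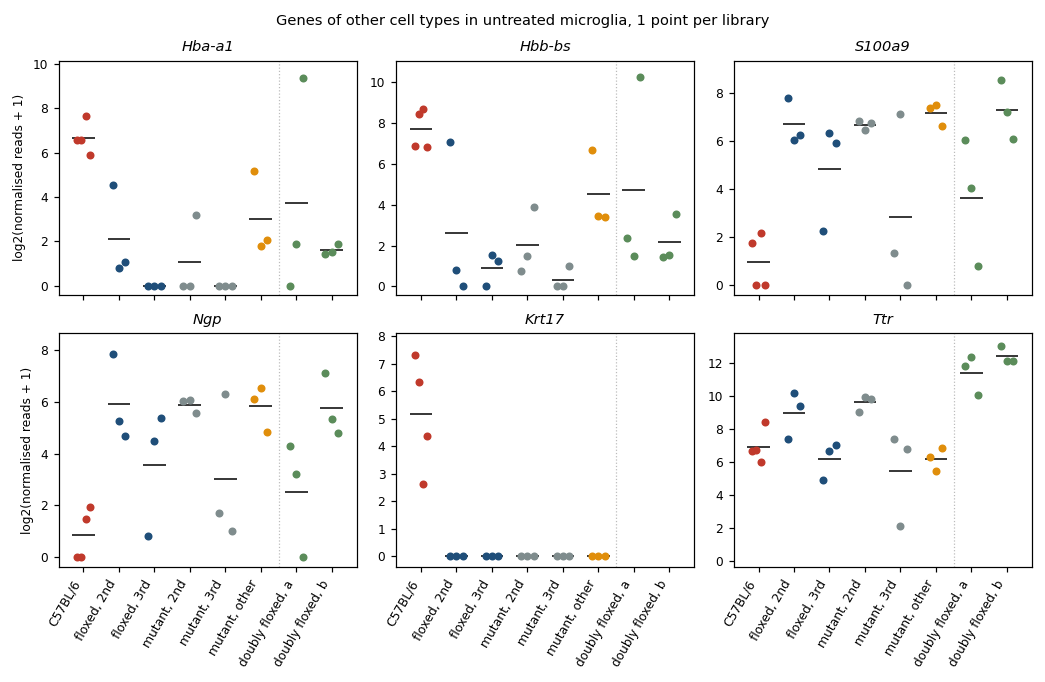
Genes of other cell types in untreated libraries by genotype and experiment, as log2(normalised reads + 1) with 1 point per library and a bar at the mean of the points; groups right of the dotted line come from the table normalised on its own, and no value of Krt17 is drawn there. Haemoglobin genes (Hba-a1, Hbb-bs) are high in all C57BL/6 libraries and in single libraries of other groups, neutrophil genes (S100a9, Ngp) are low in all C57BL/6 libraries and in single others, Krt17 is read in C57BL/6 only, and Ttr varies by experiment.

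The microglial programme itself differed by small amounts. The share called was still above that of all genes, 28.6% of 28 tested homeostatic genes against 9.56%. Of the 28, 6 were lower and 2 higher, with a median of -0.16. Tmem119, Csf1r, Sall1 and Trem2 were among the 20 that did not pass. Cx3cr1, the fractalkine receptor, stood at 3642, 3903, 3488 and 3382 normalised reads against 4012 to 5714, with a median of 5328 (log2 -0.50 ± 0.12, adjusted p = 0.0151). The mutants, which carry Cre in that locus, ranged from 1756 to 2963, so the sign turned when they replaced the floxed controls (log2 0.58, adjusted p = 0.00289). Against the floxed controls the call was lost without C57BL/6 replicate 3 (adjusted p = 0.0520) or 4 (adjusted p = 0.0595). P2ry12, the purinergic receptor that guides processes to injury, stood at 3212, 3035, 2760.4 and 3007 against 3318 to 4441, with a median of 4215 (log2 -0.40 ± 0.12, adjusted p = 0.0441), a call lost when any of the 4 C57BL/6 libraries or floxed replicates 2, 4, 5 or 6 was left out (adjusted p from 0.0785 to 0.140). The transcription factor Mef2a was lower, at log2 -0.59, and Mertk, a receptor for engulfing dead cells, was lower at log2 -0.53, with no overlap between the groups in either. Against the 2nd floxed experiment alone limma lost the calls of Mef2a (adjusted p = 0.0758), Mertk (adjusted p = 0.0617), Cx3cr1 (adjusted p = 0.192) and P2ry12 (adjusted p = 0.388). The complement genes C1qb and C1qc were higher by log2 0.81 and log2 0.55, and both lost the call under quantile normalisation (log2 0.27 and 0.34, adjusted p = 0.169 and 0.0912). C1qc lost it also without C57BL/6 replicate 3 (adjusted p = 0.0671) or 4 (adjusted p = 0.0629).

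Genes that microglia raise in neurodegeneration differed in both directions. Of 15 tested 6 were higher and 2 lower, where 6.07% and 3.49% of all genes were, with a median of 0.42. Apoe, a lipid carrier and a leading gene of that state, was lower, 3705, 6181, 4085 and 3196 against 6228 to 7742, with a median of 6672 (log2 -0.70 ± 0.16, adjusted p = 0.00848). Axl, a receptor of the same family as Mertk, was higher by log2 1.19, with 69.5, 116, 62.2 and 67.2 against 23.6 to 68.1, with a median of 30.1. The groups overlapped for Axl, and its call was lost against the 2nd floxed experiment alone (adjusted p = 0.0995). Of 9 tested genes of the interleukin 10 receptor and STAT3 pathway 4 were higher, where 6.07% of all genes were. They were led by Socs3, the feedback inhibitor of cytokine signalling, at 386, 412, 399 and 541 against 113 to 209, with a median of 139 (log2 1.53 ± 0.15, adjusted p = 2.74e-06). Socs3 also stood on the chemokine and feedback list. Among 11 tested proliferation genes 2 were higher and 1 was lower, where 6.07% and 3.49% of all genes were. The lower gene was Mcm5 of the replicative helicase (log2 -1.35 ± 0.34, adjusted p = 0.0174). The call of Mcm5 was lost without C57BL/6 replicate 2 (adjusted p = 0.0697) or 3 (adjusted p = 0.0612).

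Outside the lists, the largest rises with non-overlapping groups included Pear1, a receptor of platelets and endothelium, at 18.9, 26.2, 22.5 and 15.4 against 0 to 2.15, with a median of 1.002 (log2 3.47 ± 0.40, adjusted p = 1.36e-05). The remaining largest falls were of genes at low levels. Pdcd1, the gene of the inhibitory receptor PD-1, stood at 2.36, 11.2, 15.5 and 5.60 against 17.1 to 36.8, with a median of 23.6 (log2 -1.63 ± 0.37, adjusted p = 0.00925). The call of Pdcd1 was lost against the 2nd floxed experiment alone (adjusted p = 0.174). Coro2a, an actin-binding protein and part of a corepressor complex, stood at 21.2, 14.999, 20.7 and 30.8 against 43.8 to 86.4, with a median of 61.5 (log2 -1.54 ± 0.21, adjusted p = 1.13e-04), and C5ar1, the receptor for complement C5a, at 5.89, 5.62, 15.5 and 11.2 against 19.3 to 41.6, with a median of 27.3 (log2 -1.54 ± 0.31, adjusted p = 0.00339). Dusp27, Ank2, Htra3 and Nsa2 were also lower, with log2 differences of -1.52, -1.51, -1.50 and -1.95. The call of Ank2 was lost against the 2nd floxed experiment alone (adjusted p = 0.0684). The call of Nsa2 was lost without C57BL/6 replicate 2 or any of floxed replicates 2, 4, 5 and 6 (adjusted p from 0.0574 to 0.0836).

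**Figure D4:**
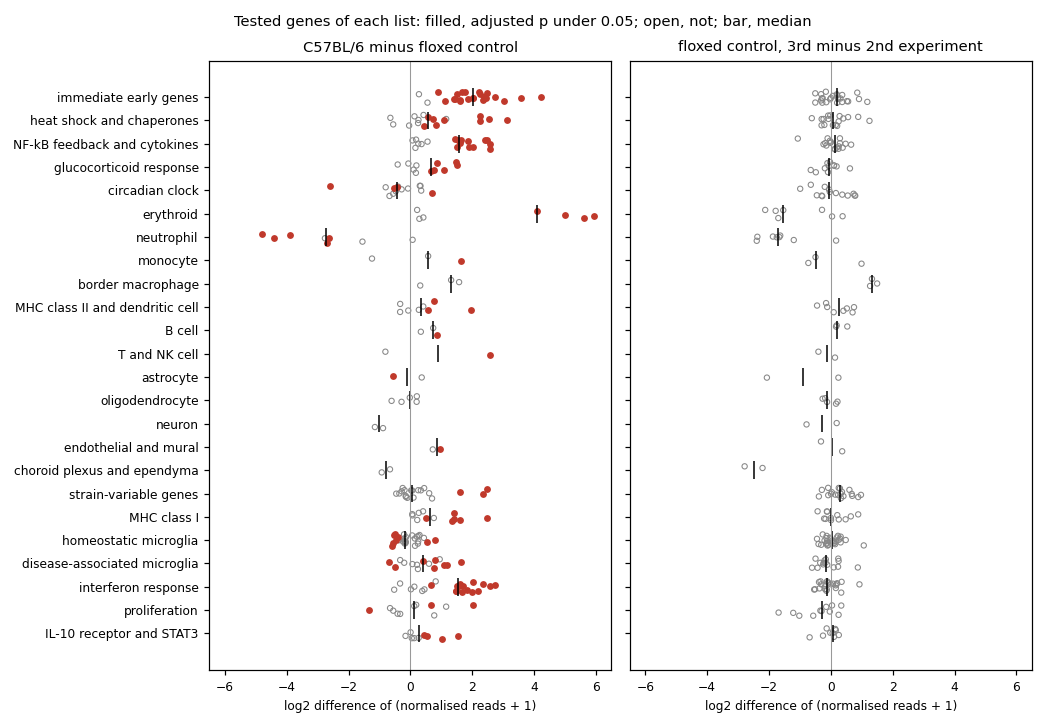
Log2 differences of all tested genes in 24 lists, C57BL/6 minus floxed control on the left and the 3rd minus the 2nd floxed experiment on the right; each point is a gene, filled where its adjusted p in limma was under 0.05, and the bar is the list's median. Immediate early, chemokine and interferon genes lie right of 0 on the left panel with medians of 2.03, 1.57 and 1.54, while on the right panel their medians are 0.19, 0.13 and -0.11.

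The difference between the 2 floxed experiments shares its libraries with the comparison above and is given side by side only. There the medians were 0.19 for immediate early genes, 0.13 for the chemokine and NF-kB feedback list, 0.07 for heat shock genes and -0.11 for interferon genes. The lists with the widest medians were those of other cell types, -2.50 for choroid plexus, -1.71 for neutrophils and -1.54 for erythroid genes, on 2, 8 and 7 tested genes.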

How the data were processed

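RNA of microglia from 10 untreated libraries (4 C57BL/6, 6 floxed control) was compared, with 15 further untreated libraries for orientation. The values are read signals that the authors normalised per library before they deposited them, and the build was mm10 per the submitters' processing notes; the aligner is not stated in the sources used here. The low values of each library were whole multiples of 1 read (100% of values within a tolerance of 0.01), so read numbers were recovered from the deposited signal. Of 11566 rows 17 named by a date were left out, which kept 11549 genes, and 32 other columns of the used tables were not used.

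Genes reaching a value of 5 in 4 or more of the 10 libraries were tested with limma 3.58.1 (trend, R 4.3.3) on log2(value + 1). Fold changes are on that scale, which understates those of low genes. A gene low in 1 group could pass the filter through the other group alone, which favours calls of such genes. P-values were adjusted by Benjamini-Hochberg over 9940 genes and called under 0.05; the ± values are standard errors. The fit was tested on simulated data. Alternatives were other pseudocounts (0.5 and 5), no filter, quantile normalisation, edgeR 4.0.16 and DESeq2 1.42.0 on recovered reads, each library left out, each floxed experiment alone, all untreated libraries in 1 fit, the experiment as a random block, and the replicate number as a block. Using the Il10ra mutants in place of the floxed controls was added after seeing the data. Labels gave groups and experiments. No pair of replicates agreed within sampling noise.

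The text names the 10 largest rises and falls (called, absolute log2 of at least 1, mean of at least 20, no overlap, predicted genes left out), Il10ra, Tnf, Cx3cr1, and from the lists mainly the 5 members of lowest p; others were chosen after their values were seen. The comparison and the gene lists were chosen with earlier results of these data known. Positions and promoters are from RefSeq (GRCm38.p6), which matched 9702 of the genes tested.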

Additional observations from a re-analysis of the deposited data

Results flagged for a closer look

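A value was singled out where the highest or lowest library of a group stood further from its neighbour than Dixon's criterion allows. Chance does this in about 1 of 20 groups, and 29 of the 168 groups of values tested were singled out, 16 of them by floxed replicate 1.

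Floxed replicate 1 stood apart with high values of blood-cell genes: 22.2 normalised reads for Hba-a1, 20.7 for Hba-a2, 134 for Hbb-bs, 40.0 for Hbb-bt, 220.0 for S100a9, 232 for Ngp and 22.96 for Chil3. It also had the highest values of Il10ra (685.8), Sgk1 (859.8), H2-K1 (619), H2-D1 (902), H2-Q7 (14.1), Axl (68.1) and Mcm5 (33.3). It had the lowest values of Nfkbia (312) and Mertk (966). Its part in these genes' group differences is given by the fits without it.

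Other floxed libraries stood apart singly. Replicate 5 had a low Ier2 (120.03) and a high Hspb1 (46.1), replicate 6 a high Igha (14.1), replicate 4 a high Mrc1 (16.9), and replicate 3 a high Apoe (7742) and a low Cd79b (38.6).

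Among the C57BL/6 libraries, replicate 2 was high for Ccl3 (1365), H2-D1 (1895) and Axl (116). Replicate 1 was the only one with reads of S100a8 (2.36), replicate 3 had the lowest Lrba (295), and replicate 4 was high for Ttr (342) and Socs3 (541).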

How the results depend on the processing

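The 950 calls of C57BL/6 against the floxed controls numbered between 815 (DESeq2) and 1213 (Il10ra mutants in place of floxed controls) under both pseudocounts, no filter, quantile normalisation, edgeR, DESeq2, all untreated libraries, the random block and the mutants. They fell to 405 against the 2nd floxed experiment alone and rose to 1698 against the 3rd alone, and leaving out 1 library gave 691 to 1496, the highest without floxed replicate 1. With the replicate number as a block 386 genes were called, 380 of them among the 950. The same-numbered libraries did not deviate together (correlations of -0.045, 0.017, 0.003 and -0.064), so the numbers do not pair them. Between the 2 floxed experiments limma's 1 call became 5 with a pseudocount of 5 and with no filter, 2 under quantile normalisation and edgeR, and 32 in DESeq2, with 0 to 169 when 1 library was left out. The causes of these shifts were not tested. Of 79 called genes among 84 examined, 56 were called in the same direction under all 22 alternatives. Signs turned for Cx3cr1 (log2 0.58 with the mutants in place), Ttr (0.74 against the 3rd experiment) and Xist (0.13 against the 2nd experiment; Xist log2 values ran from -0.125 to 0.037 with 1 library left out, the highest without floxed replicate 4). Depth limits genes of a few reads, and every C57BL/6 library was shallower than every floxed one.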

Other observations

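Several of the large differences lay beside each other on a chromosome, in the same direction; these pairs were chosen after their values were seen. The chemokine genes Ccl2 and Ccl12 were higher in C57BL/6 by log2 1.50 and 1.62 and lie 64.4 kb apart on chromosome 11. On the same chromosome Ccl5 and Ccl9 were higher by log2 2.58 and 1.12, at a distance of 42.4 kb. The interferon-inducible neighbours Ifit2 and Ifit3 on chromosome 19 were higher by log2 1.70 and 2.35, and Phf11b and Phf11d on chromosome 14 by log2 1.22 and 1.17.

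The neighbouring histone genes Hist1h2bc and Hist1h4c on chromosome 13 were higher as well, with log2 differences of 1.47 for Hist1h2bc and 2.50 for Hist1h4c. The neighbour of Hspa8 on chromosome 9, Gramd1b, differed in the opposite direction, at log2 -1.36 against 3.14 for Hspa8, across 267.7 kb.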
